A study of Mus musculus with 2 samples.

Results

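The 9 genes described here belong to the Hedgehog pathway and were measured in the embryonic mouse midbrain: the ligand Shh, the receptor Ptch1, the secreted-ligand inhibitor Hhip, the co-receptors Boc and Cdon, the transducer Smo and the transcription factors Gli1, Gli2 and Gli3. They were taken by gene name from the GENCODE M21 annotation, and all 9 were found among its 55536 genes. Polyadenylated RNA was measured in 2 libraries of midbrain from healthy embryos of the mouse strain B6NCrl at 12.5 days, male and female pooled. Replicate 1 was made from 120 pooled embryos and replicate 2 from 88, each from 10 ng of RNA with oligo-dT priming and tagmentation. The study has this 1 group, with no treatment and no second tissue or age, so no contrast between conditions exists. Each pool gave 1 library, and a difference between the libraries therefore combines pool, dissection and library preparation, which cannot be told apart. In such bulk samples, fewer cells of a type and less RNA per cell cannot be told apart either.

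Hedgehog proteins are secreted signals. Ptch1 holds the membrane protein Smo inactive until a ligand binds Ptch1, and active Smo then changes the processing of the Gli proteins from repressors, chiefly made from Gli3, towards activators. In the ventral neural tube and midbrain, Shh made by the notochord and floor plate patterns the progenitors, and Ptch1, Hhip and Gli1 are themselves transcribed in responding cells.

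The libraries held 30274342 and 38421860 expected counts, which are estimated reads per gene. All 10 midbrain markers, among them Otx2, were detected, and their summed level was 313 TPM in replicate 1 and 315 in replicate 2. TPM is a level per transcript length that sums to 1 fixed total per library, and detected means at least 1 TPM in both libraries. Of 8 hindbrain markers only Gbx2 was detected. Atoh1 passed 1 TPM in replicate 2 only, at 0.69 and 2.06 TPM from 26 and 98 counts. Markers of other tissues were present: 7 of 8 forebrain genes, 9 of 9 genes of meninges and mesenchyme, 4 of 6 cartilage genes and 6 of 7 genes of surface and oral epithelium were detected, and no marker of any list was at 0 in both libraries.

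Sequences are shown first, chosen by the rules given with each. Ptch1 has alternative first exons that are spliced to the same second exon, chr13:63563623-63563815 on the minus strand of mm10, and the use of one of them differed between the libraries. The 30 bases across that junction are given for the 2 transcripts with counts in both libraries whose junction lies in coding sequence, 5′ to 3′, with the shared second exon in capitals.
Ptch1-201: gagcagatttccaagGGGAAGGCTACTGGC
Ptch1-205: acccgcggcgacaggGGGAAGGCTACTGGC

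Promoter sequence was matched by symbol for 6 of the 9 genes (Gli2, Smo, Hhip, Cdon, Gli3 and Ptch1), in RefSeq windows on GRCm38.p6 of 300 bases, 250 before and 50 after a start site; Shh, Boc and Gli1 are named only. The 250 bases before the start are printed for Ptch1 and Hhip, whose ratios between the libraries were the largest of the 9, and for Gli2, which held a Gli-type motif. Capitals mark ACCACCC, the core of the Gli binding motif, or GGGCGG, the GC box, on either strand.
Ptch1 chr13:63565736-63565985, minus strand: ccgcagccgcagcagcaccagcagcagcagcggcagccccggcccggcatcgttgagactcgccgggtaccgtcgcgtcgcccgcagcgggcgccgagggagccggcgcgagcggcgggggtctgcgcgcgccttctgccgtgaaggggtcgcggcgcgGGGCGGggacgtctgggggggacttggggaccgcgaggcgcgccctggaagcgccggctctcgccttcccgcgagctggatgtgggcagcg
Hhip chr8:80058009-80058258, minus strand: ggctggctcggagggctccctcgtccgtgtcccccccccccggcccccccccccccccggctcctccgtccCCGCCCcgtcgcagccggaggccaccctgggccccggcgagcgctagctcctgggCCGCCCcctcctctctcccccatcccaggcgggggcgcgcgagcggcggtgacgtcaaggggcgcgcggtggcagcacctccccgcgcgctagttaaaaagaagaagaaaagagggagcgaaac
Gli2 chr1:119053620-119053869, minus strand: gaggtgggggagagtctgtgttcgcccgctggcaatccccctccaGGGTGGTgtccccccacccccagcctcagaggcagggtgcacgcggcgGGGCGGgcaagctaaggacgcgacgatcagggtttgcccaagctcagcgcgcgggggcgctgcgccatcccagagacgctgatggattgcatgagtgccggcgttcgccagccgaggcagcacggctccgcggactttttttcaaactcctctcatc
Each motif was searched on both strands, and ACCACCC lies within GACCACCCA. GACCACCCA was in none of the 6 windows and in 0.253% of all 32851 windows of 300 bases. ACCACCC was found once, in Gli2 at position -205 from the start on the minus strand, and in 4.61% of all windows. GGGCGG was found once in Ptch1 and once in Gli2, 2 times in Hhip and 2 times in Gli3, and 35.7% of all windows held it. TATAAA was in none of the 6 and in 13.6% of all windows. A match here describes letters in a window, not a bound site. The RefSeq start of Ptch1 is the first base of transcript Ptch1-201, that of Gli2 the first base of Gli2-201, that of Gli3 the first base of Gli3-203, and that of Cdon the first base of Cdon-201, a transcript listed at 0 in both libraries. G and C made up 78.4% of the printed Ptch1 bases, 76.0% of those of Hhip and 67.2% of those of Gli2.

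Related genes of the family can share reads, so the longest run of identical bases was found between the main coding transcripts. It was 25 bases between Gli2 and Gli3, 23 between Gli1 and Gli2, 14 between Gli1 and Gli3, and 31 between Boc and Cdon. All of these runs lie inside the coding sequence. The longest in each of the Gli and co-receptor families are printed with 15 bases on either side, and capitals mark the identical run.
Gli2-201: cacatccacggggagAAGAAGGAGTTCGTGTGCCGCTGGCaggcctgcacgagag
Gli3-201: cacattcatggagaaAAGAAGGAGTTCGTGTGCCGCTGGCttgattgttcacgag
Boc-201: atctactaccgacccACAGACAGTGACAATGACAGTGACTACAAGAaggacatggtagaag
Cdon-202: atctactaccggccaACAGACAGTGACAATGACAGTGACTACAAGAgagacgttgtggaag
The Gli2 and Gli3 windows differ at several bases just outside the run, and so do those of Boc and Cdon. The sources used here give no read length, and how many reads fell wholly within such runs was not computed.

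All 9 genes were detected, and their levels spanned 29.4-fold. The order by mean TPM was Boc, Smo, Gli3, Ptch1, Cdon, Gli2, Shh, Gli1 and Hhip, with a median of 16.5 TPM, against a median of 22.2 TPM for the 13083 detected among 22028 protein-coding genes. The co-receptor Boc, the transducer Smo and the chiefly repressive factor Gli3 stood above the receptor Ptch1, and the ligand, Gli1 and Hhip stood lowest. Of the 8 pairs of neighbours in that order, only Ptch1 and Cdon had ranges that overlapped over the 2 libraries: Ptch1 was the higher in replicate 1 and Cdon in replicate 2. The plot of levels by library shows these values.

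**Figure D1:**
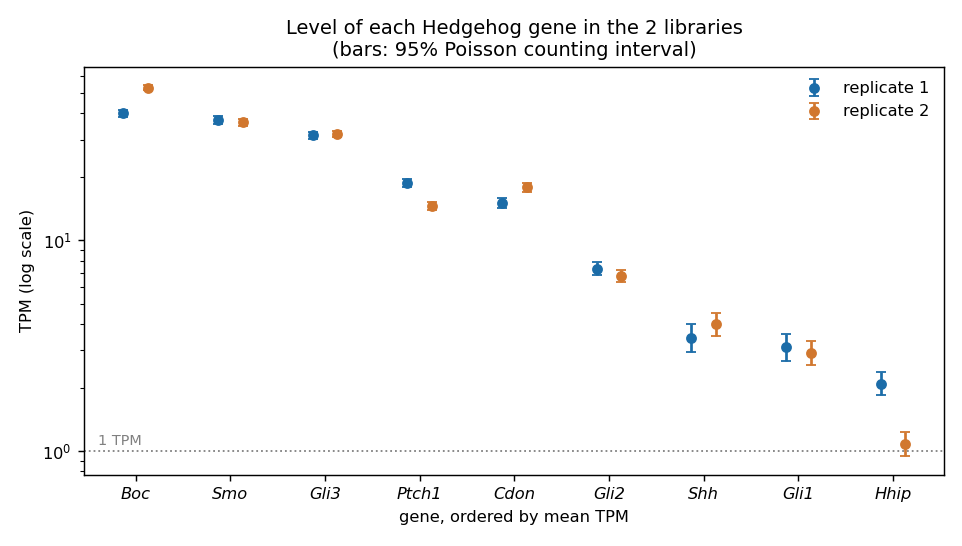
Level of each of the 9 genes in TPM on a log scale, ordered by mean, with replicate 1 in blue and replicate 2 in orange and bars for the 95% Poisson interval of the count. Boc is highest (40.0 and 53.1 TPM) and Hhip lowest (2.09 and 1.08 TPM), and Ptch1 and Cdon exchange places between the libraries.

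The ligand Shh (ENSMUSG00000002633.4, chr5:28456815-28467256, minus strand) was measured at 3.45 TPM in replicate 1 and 4.00 TPM in replicate 2, from 177 and 259 counts. Its mean of 3.73 ± 0.389 TPM (SD, n = 2) placed it at percentile 48.5 of all protein-coding genes, undetected ones included. The log2 ratio of TMM-scaled counts, replicate 1 over replicate 2, was -0.19, with an exact 95% interval of -0.47 to 0.10, which includes equality. Scaled by the spike-ins instead, it was -0.46 (-0.74 to -0.17), higher in replicate 2 beyond counting error; that scaling shifted the median ratio of all genes to -0.28. These intervals come from the split of the counts between the libraries, so they cover counting error only. The reads carry no molecular identifiers, so repeated copies of 1 molecule cannot be told apart. The related ligands Ihh, at 0.11 and 0.18 TPM, and Dhh, at 0.43 and 0.52 TPM, were below the limit of detection in both libraries. Shh therefore took 86.5% of the summed ligand TPM in replicate 1 and 85.1% in replicate 2. Markers of the floor plate, the midline tissue that makes Shh, were detected in 7 of 7 cases with a summed level of 75.8 TPM in replicate 1 and 108 in replicate 2. Of these 7, 5 were higher in replicate 2 and 1 in replicate 1 beyond counting error; their part in the Shh value was not tested.

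The receptor Ptch1 (ENSMUSG00000021466.12, chr13:63508328-63573598, minus strand) was measured at 18.7 TPM in replicate 1 and 14.6 TPM in replicate 2, from 2140 and 1980 counts (mean 16.7 ± 2.89 TPM, SD, n = 2). Replicate 1 was the higher although it was the shallower library. The log2 ratio was 0.48 (0.39 to 0.56), a 1.39-fold difference beyond counting error. Per unit of ligand RNA, Ptch1 was 5.42-fold above Shh in replicate 1 and 3.65-fold above it in replicate 2.

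Hhip (ENSMUSG00000064325.4, chr8:79965851-80058006, minus strand), a membrane-anchored protein that binds Hedgehog ligands and limits their range, was measured at 2.09 TPM in replicate 1 and 1.08 TPM in replicate 2. The counts were 256 and 229, with a log2 ratio of 0.52 (0.26 to 0.79), so that Hhip too was higher in replicate 1 beyond counting error. The ratio of the deposited TPM was larger, 0.95 on the log2 scale. The quantification gave 12.8 counts in replicate 1, and 0 in replicate 2, to Hhip-202, a short processed transcript, and those counts made up 30.6% of the TPM of Hhip in replicate 1. The complete coding transcript Hhip-201 alone had 1.45 and 1.08 TPM and a log2 ratio of counts of 0.45.

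The co-receptor Boc (ENSMUSG00000022687.12, chr16:44485049-44558897, minus strand), an immunoglobulin-superfamily protein that presents ligand to Ptch1, was the most abundant of the 9. It was measured at 40.0 TPM in replicate 1 and 53.1 TPM in replicate 2, from 3251 and 5443 counts (mean 46.5 ± 9.22 TPM, SD, n = 2), at percentile 82.7 of protein-coding genes. The log2 ratio was -0.38 (-0.44 to -0.32), and Boc was the only one of the 9 that was higher in replicate 2 beyond counting error, by 1.30-fold. Its relative Cdon (ENSMUSG00000038119.15, chr9:35421128-35507652, plus strand) was measured at 15.1 and 17.9 TPM from 1155 and 1546 counts. The log2 ratio of Cdon was -0.06 (-0.17 to 0.05), within counting error, and with spike-in scaling -0.33 (-0.44 to -0.22), beyond it. Boc was 2.66-fold above Cdon in replicate 1 and 2.97-fold above it in replicate 2.

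Among the co-receptors of the pathway, the largest share of summed TPM belonged to Gas1, a lipid-anchored co-receptor, at 60.9% and 55.8%. Boc followed at 25.9% and 31.1%, Cdon at 9.76% and 10.5%, and the endocytic receptor Lrp2 at 3.40% and 2.60%.

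Smo (ENSMUSG00000001761.7, chr6:29735503-29761365, plus strand), the seven-pass membrane protein that carries the signal into the cell, was measured at 37.3 TPM in replicate 1 and 36.3 TPM in replicate 2, from 2488 and 3050 counts. Its mean was 36.8 ± 0.679 TPM (SD, n = 2) and its log2 ratio 0.07 (-0.01 to 0.15). With spike-in scaling the ratio of Smo turned to -0.20 (-0.28 to -0.12). Smo exceeded Ptch1 1.99-fold in replicate 1 and 2.48-fold in replicate 2.

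The Gli factors bind DNA through zinc fingers. Gli3 (ENSMUSG00000021318.15, chr13:15463235-15730026, plus strand), the main source of the repressor form, was measured at 31.4 TPM in replicate 1 and 32.0 TPM in replicate 2, from 3483 and 4462 counts. Its log2 ratio was 0.01 (-0.06 to 0.07), and with spike-in scaling -0.26 (-0.33 to -0.20). Gli2 (ENSMUSG00000048402.14, chr1:118834132-119053619, minus strand), the main activator of the pathway in the neural tube, was measured at 7.33 and 6.76 TPM from 787 and 911 counts. The log2 ratio of Gli2 was 0.15 (0.01 to 0.29), just beyond counting error, and it turned to -0.12 when the libraries were scaled by their spike-ins. Gli1 (ENSMUSG00000025407.7, chr10:127329882-127341974, minus strand), an activator that is itself switched on by the signal, was measured at 3.10 and 2.92 TPM from 188 and 232 counts, with a log2 ratio of 0.06 (-0.23 to 0.34).

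Gli3 took 75.1% of the summed Gli TPM in replicate 1 and 76.8% in replicate 2, Gli2 took 17.5% and 16.2%, and Gli1 took 7.41% and 7.01%. By these shares of TPM, the make-up of the Gli RNA hardly moved between the pools. The sum itself was 41.9 and 41.7 TPM. Gli3 was 10.1-fold above Gli1 in replicate 1 and 10.9-fold in replicate 2, and Gli2 was 2.36-fold and 2.32-fold above Gli1. Gli1 and Shh lay close together: the counting intervals overlapped in replicate 1, at 2.67 to 3.58 TPM for Gli1 and 2.96 to 4.00 for Shh, and not in replicate 2, at 2.56 to 3.32 and 3.53 to 4.52. Gli1 and Ptch1, both known to respond to the signal, had ratios between the libraries whose counting intervals did not overlap: Ptch1 was 6.03-fold above Gli1 in replicate 1 and 5.00-fold above it in replicate 2. RNA levels give no measure of how much Gli protein was in the activator or repressor form.

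Between the libraries, 3 of the 9 genes were higher in replicate 1 beyond counting error (Ptch1, Hhip and Gli2) and 1 was higher in replicate 2 (Boc), while 5 were within it. Over all 19885 genes that reached 10 counts in either library, 15.5% were higher in replicate 1 by that rule, 16.7% in replicate 2 and 32.3% in either direction. Scaled by spike-in totals, which moved the median ratio of all genes from -0.01 to -0.28, Ptch1 stayed higher in replicate 1 at 0.21, Hhip came within counting error at 0.25, and the other 7 had ratios below 0, of which those of Shh, Boc, Cdon, Smo and Gli3 were beyond counting error. A ratio beyond counting error was thus common, and the 4 of 9 are a description of these genes. None of the 9 reached 2-fold with an interval excluding equality, which 4.23% of those 19885 genes did. The 9 had at least 177 counts in each library, so these shares over all genes are not matched to them in depth. Of the 841 genes past 2-fold, 208 had at least 50 counts in either library. Against the spread of the 14324 genes with at least 50 counts in both libraries, whose central 95% ran from -0.50 to 0.42 on the log2 scale, Ptch1 and Hhip lay outside, at percentiles 98.0 and 98.4. Boc lay inside, at percentile 4.90. No p-value is given, since 1 library per pool leaves no error between pools to test against.

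**Figure D2:**
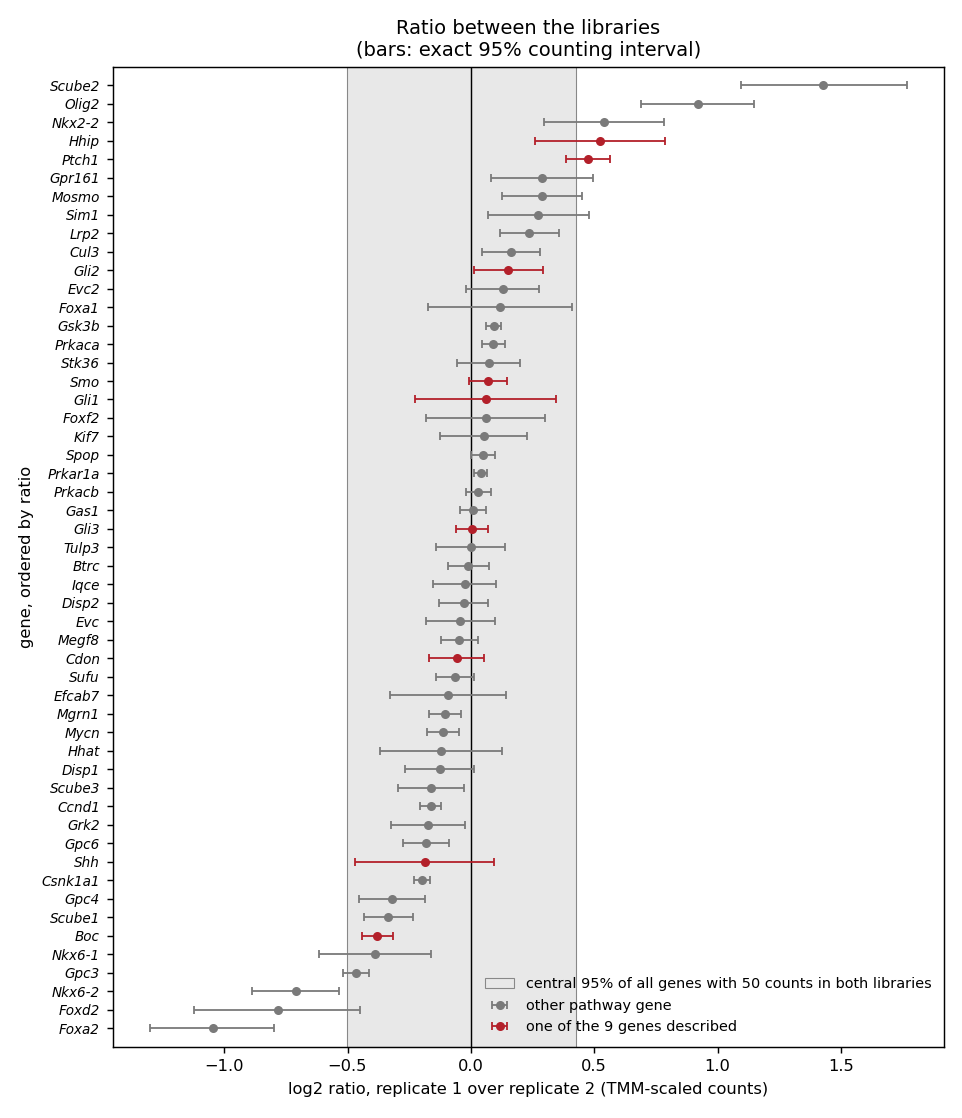
Log2 ratio of replicate 1 over replicate 2, from TMM-scaled counts, for the pathway genes with at least 50 counts in both libraries, with exact 95% counting intervals; red marks the 9 genes and grey the other listed genes, and the shaded band is the central 95% of all genes at that depth. Ptch1 (0.48) and Hhip (0.52) lie above the band, and Boc (-0.38) and the other 6 lie within it.

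Marker lists moved between the libraries beside these genes. Genes of meninges and mesenchyme were summed at 1004 TPM in replicate 1 and 1422 TPM in replicate 2, and 8 of 9 were higher in replicate 2 beyond counting error and 0 in replicate 1. The cartilage list had 218 and 298 TPM, with 6 of 6 higher in replicate 2. In the other direction, the forebrain list had 67.8 and 47.6 TPM, with 6 of the 7 that had enough counts higher in replicate 1 and 1 in replicate 2. The choroid plexus list had 55.0 and 32.2 TPM, with 2 of 5 higher in replicate 1 and 0 in replicate 2. Those 2 were Ttr, at 37.8 and 13.5 TPM, and Clic6, at 3.53 and 1.22 TPM. Folr1 went the other way in TPM, at 5.16 and 9.30, with a count ratio within counting error. The median log2 ratio of the list was 0.10. Beyond counting error, 6 of 7 neuron genes, a list with a median log2 ratio of 0.12, were higher in replicate 1 and 0 in replicate 2. For neural progenitors and radial glia these were 4 and 2 of 7, and for hindbrain 1 and 1 of 3 with enough counts. For erythroid cells they were 0 and 4 of 6, and for endothelium and pericytes 1 and 4 of 6. For surface and oral epithelium they were 1 and 4 of 7, and for microglia 0 and 1 of 5. The part of all these tissues in the values of Boc, Ptch1 and Hhip was not tested. The midbrain list itself was level in sum, a sum led by Otx2 at 145 and 141 TPM. Its genes were not level 1 by 1: 4 of 10 were higher in replicate 1 and 6 in replicate 2 beyond counting error. The median log2 ratio of the list was -0.19.

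The transcript tables showed where the reads of each gene were placed. The annotation holds 40 transcripts of the 9 genes, of which 12 are complete coding models and 12 are incomplete coding models, and 12 were listed at 0 in both libraries. Shh and Boc have 1 transcript each. For Smo, the complete coding Smo-201 took 91.9% of the TPM in replicate 1 and 91.0% in replicate 2, the rest being the retained-intron model Smo-202. Gli1-201 took 77.4% and 81.8% of the TPM of Gli1. Gli3-201 took 62.7% and 62.1%, with the incomplete Gli3-202 at 19.1% and 17.5% and the retained-intron model Gli3-203 at 18.3% and 20.4%. The shares of Smo and Gli3 were thus near equal in the 2 pools, as their TPM levels were.

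**Figure D3:**
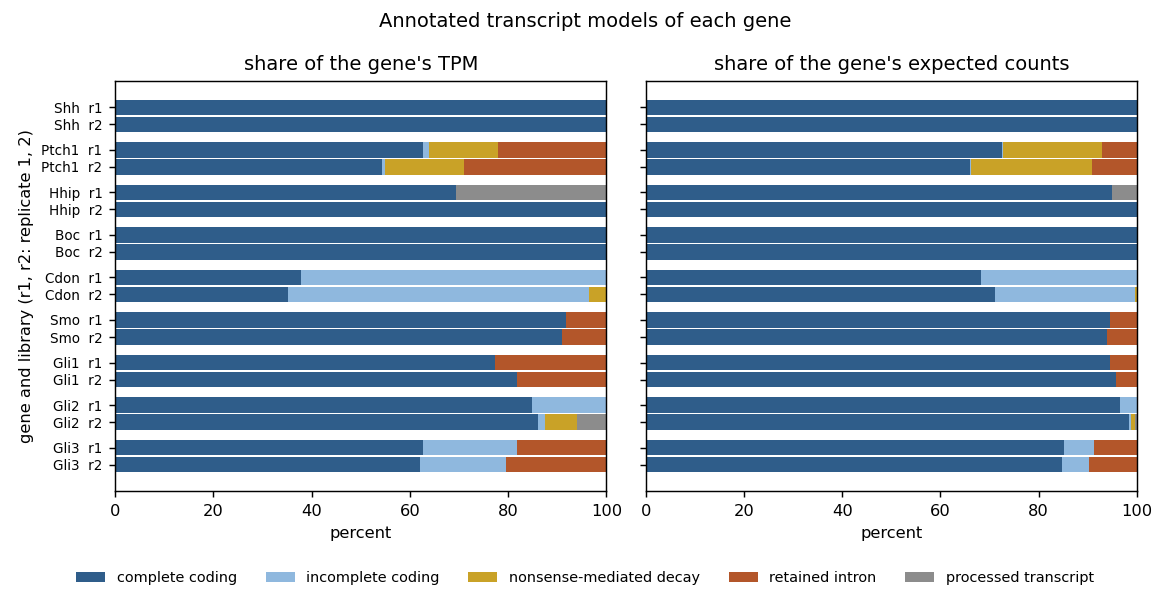
Share of each gene's TPM (left) and expected counts (right), in percent, by kind of annotated transcript model, with one bar per library (r1 and r2). Complete coding models hold 37.9% and 35.2% of the TPM of Cdon but 68.2% and 71.0% of its counts, and Shh and Boc have complete coding models only.

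Ptch1 differed between the libraries in its transcripts as well as in its level. Ptch1-201, which starts from the promoter printed above, was measured at 3.07 TPM in replicate 1 and 0.82 TPM in replicate 2, or 16.4% and 5.60% of the TPM of the gene. The authors' deposited intervals for it, 2.18 to 3.85 TPM and 0.42 to 1.32 TPM, did not overlap. Their level is not stated. At gene level the deposited TPM of Boc in both libraries and of Gli2 in replicate 1 lies outside its own interval. Overlap of these intervals is therefore a description and not a test. Of the 40 transcripts of the 9 genes, 4 had intervals apart between the libraries: Ptch1-201, Hhip-201, Boc-201 and Gli2-206. The share over the transcripts of all genes was not counted. Ptch1-202, the other complete coding transcript and the most abundant, with its own first exon at chr13:63564458-63564535, had 8.64 and 7.13 TPM, with deposited intervals of 7.10 to 9.33 and 6.05 to 7.61 that overlapped. Of the Ptch1 counts, 437 in replicate 1 and 147 in replicate 2 were assigned to Ptch1-201, a log2 ratio of 1.93. The remaining 1703 and 1833 counts had a log2 ratio of 0.26. Leaving out the reads given to that 1 transcript thus brought the log2 ratio of Ptch1 from 0.48 to 0.26. The assignment of reads among transcripts that share most of their exons is a model estimate, and the transcripts to look at were chosen after their values were seen.

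The other Ptch1 reads fell on models that do not make a full protein. Ptch1-204 and Ptch1-206, both annotated as targets of nonsense-mediated decay, together took 14.0% and 15.9% of the TPM. Ptch1-210, a retained intron with no coding sequence, took 20.7% and 24.4% of the TPM from 153 and 178 counts. Over complete coding models only, Ptch1 had 11.7 TPM in replicate 1 and 7.95 TPM in replicate 2.

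**Figure D4:**
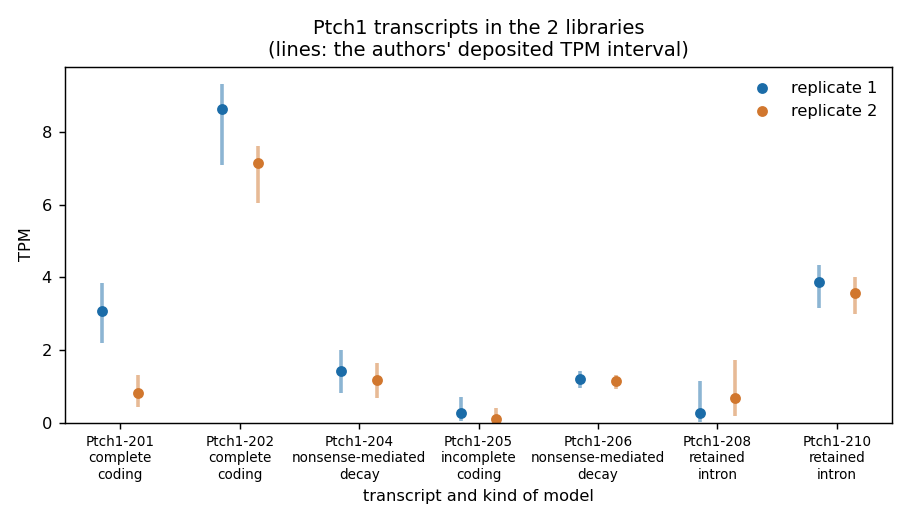
TPM of the 7 Ptch1 transcripts that had counts, by library, with lines for the authors' deposited interval. Ptch1-201 stands at 3.07 TPM in replicate 1 and 0.82 in replicate 2 with intervals apart, and the intervals of the other 6 overlap.

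Cdon and Gli2 also had transcripts whose shares differed. For Cdon, the complete coding Cdon-202 held 788 and 1098 counts. The incomplete model Cdon-206 held 366 and 406 counts and, being shorter, a larger share of TPM, 61.3% and 45.4%. Cdon-205, another incomplete model, went from 1.38 counts in replicate 1 to 37.2 in replicate 2, and its share of TPM from 0.89% to 16.0%. The deposited intervals of Cdon-205 overlapped between the libraries, as did those of Cdon-206. For Gli2, the incomplete Gli2-206 had 27.2 counts in replicate 1 and 3.04 in replicate 2, or 15.1% and 1.46% of the TPM, with deposited intervals that did not overlap, while Gli2-201 took 84.9% and 86.1%. In all, 6 of the 40 transcripts differed by more than 10 percentage points of their gene's TPM. Among them, Hhip-201 and Hhip-202 mirrored each other, at 30.6 points, through the 12.8 counts of Hhip-202 in replicate 1. Over all genes with at least 50 counts in both libraries, a smaller part of the transcripts differed so, 6.7% of 80339. The transcript shares also set the gene levels. Over complete coding models only, a comparison chosen after the data were seen, Cdon had a mean of 5.995 TPM in place of 16.5. Ptch1 had 9.83 in place of 16.7, and Gli3 19.8 in place of 31.7. Cdon then stood just below Gli2, at 6.02 TPM, while the order of the other 8 was kept.

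Quantified against the older annotation, M4, none of the 9 genes differed 2-fold from M21 in both libraries, as 2.29% of 14560 genes did. Shh had 3.76 and 4.44 TPM against M4, Gli1 2.79 and 2.73, and Gli3 32.9 and 33.5. The largest shifts were in Hhip, with 3.09 and 1.99 TPM against M4, and in Ptch1, with 15.6 and 10.9 TPM. In M4, Boc had a second transcript, ENSMUST00000023370.6, that took 96.8% and 97.7% of its TPM, while Boc-201 took 3.17% and 2.34%. M21 holds only Boc-201 for the gene, and the gene level barely moved, at 42.4 and 56.1 TPM against M4.

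All 9 genes overlap another annotated gene, 13 in all, and 8 of the 13 lie on the opposite strand; the sources used here do not say whether counting used strand. The largest by share was Arhgap9, a GTPase-activating protein gene whose end overlaps that of Gli1 by 62 bases and which held 24 and 39 counts, or 12.8% and 16.8% of the Gli1 count. Gm26894, a noncoding gene opposite the first exon of Shh, held 14.2 and 10.2 counts. Gm6556, opposite the start of Gli3, held 58.0 and 66.2 counts, or 1.66% and 1.48% of the Gli3 count. The values of the low genes Gli1 and Shh are the ones such neighbours could touch most; how many reads were shared was not tested.

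The other 47 listed genes of the pathway place the 9 in their setting. Of these, 44 were detected, with a median over the 47 of 14.985 TPM; Ihh, Dhh and Foxf1, a forkhead gene of Hedgehog-responsive mesenchyme at 0.18 and 0.26 TPM, were not. Beyond counting error, 12 were higher in replicate 1 and 14 in replicate 2, and 21 were within it. Over all 19885 genes counted by that rule, 15.5% were higher in replicate 1, 16.7% in replicate 2 and 32.3% in either direction. Those shares are not matched to the 47 in depth, so the counts are a description of the listed genes. These counts and those by role below used TMM scaling, and spike-in scaling moved the median ratio of all genes to -0.28.

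**Figure D5:**
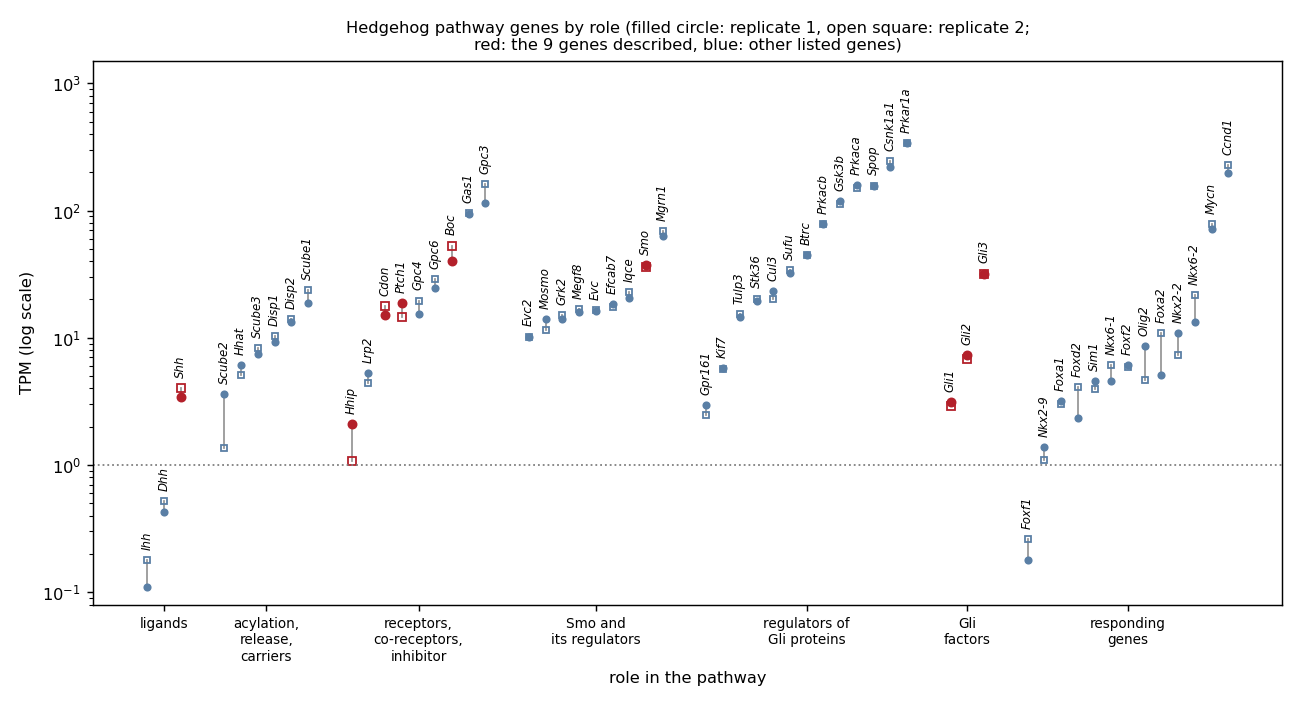
TPM on a log scale of the 9 genes (red) and the other listed pathway genes (blue), by role, with replicate 1 as a filled circle and replicate 2 as an open square. Regulators of Gli proteins are the most abundant class (Prkar1a at 340 and 336 TPM), Shh stands alone above 1 TPM among the ligands, and Scube2 and Foxa2 have the widest gaps.

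By role, 6 of 6 genes for ligand acylation, release and carriage were detected, from Scube2 to Scube1, at 18.7 and 23.6 TPM; 1 was higher in replicate 1 and 2 in replicate 2. Scube2, a secreted carrier that helps Shh leave the cell, was measured at 3.62 TPM in replicate 1 and 1.36 TPM in replicate 2, from 232 and 111 counts, a log2 ratio of 1.43 (1.09 to 1.77). It and Foxa2 were the 2 of the 47 past 2-fold. Of the 9 receptors, co-receptors and ligand-binding genes counted, all 9 were detected, with the glypican Gpc3 highest, at 115 and 161 TPM, and Hhip lowest; 3 were higher in replicate 1 and 4 in replicate 2.

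Smo and the genes acting at Smo were detected in 9 of 9 cases, from Evc2, a ciliary protein gene at 10.2 TPM in both libraries, to Mgrn1, a ubiquitin ligase gene at 63.6 and 69.4 TPM. In that list 1 was higher in replicate 1 and 2 in replicate 2. All 13 regulators of Gli proteins were detected, with a median of 44.6 TPM; 6 were higher in replicate 1 and 1 in replicate 2. The highest was Prkar1a, a regulatory subunit of protein kinase A, and the lowest Gpr161, a ciliary receptor that restrains the pathway, at 2.96 and 2.47 TPM.

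Of 13 genes known to respond to Hedgehog signalling, 12 were detected, with Foxf1 lowest and the cell-cycle gene Ccnd1 highest, at 198 and 226 TPM. Beyond counting error 6 were higher in replicate 2 and 3 in replicate 1; the responding genes did not all share the direction of Ptch1 and Hhip. Foxa2, the forkhead factor of the floor plate, was measured at 5.09 TPM in replicate 1 and 11.0 TPM in replicate 2, from 183 and 486 counts, a log2 ratio of -1.05 (-1.30 to -0.80). Shh, which the floor plate makes, had the same direction at -0.19, within counting error.

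The pathway genes with ratios nearest to those of 3 of the 9 were found among 51 candidates, over the 1 ratio that 2 libraries allow. They were Gpc6, at -0.18, and Grk2, at -0.17, for Shh; Foxf2, at 0.06, and Kif7, at 0.05, for Gli1; and Gas1, at 0.01, and Tulp3, at 0.00, for Gli3. With a single ratio per gene, this nearness carries no more than that value.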

How the data were processed

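Per the labels, polyadenylated RNA of mouse midbrain was converted by oligo-dT priming and tagmentation, with ERCC spike-ins. For each library the authors deposited gene and transcript tables against the annotations M4 and M21 (mm10). Per the file headers, they hold the expected count (an estimated number of reads, unscaled), TPM and FPKM, both scaled by length and depth, and each transcript's percent of its gene's TPM, with an interval for TPM whose level is not stated. The aligner and quantifier used, the strand setting and the read length are not given in the sources used here. Rows that name no gene, nearly all ERCC, took 4.02% of counts in replicate 1 and 3.38% in replicate 2 and were left out of library sizes and ratios; the deposited TPM includes them.

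M21 was the main quantification. Expected counts were rounded to whole numbers and scaled by TMM (edgeR 4.0.16, R 4.3.3). Log2 ratios were given Clopper-Pearson 95% intervals from the binomial split of the counts, which cover counting error only, where a gene reached 10 counts in either library; "beyond counting error" means that the interval excludes equality. Poisson intervals of levels came from scipy 1.17.1. Ratios and intervals were checked on simulated Poisson counts, which hold no variation between pools. That is the model the intervals assume, so the check covers the procedure and not its fit to these data. Alternatives were M4, FPKM, spike-in and DESeq2 1.42.0 scaling, other count and detection limits, and single libraries. The text names all 9 genes; in each pathway list the highest, the lowest, those below 1 TPM in a library and those past 2-fold; the 2 nearest in ratio to Shh, Gli1 and Gli3; and overlapping genes. Other genes and transcripts were named after their values were seen. The 9 genes and all lists were chosen with earlier results of these data known. Values of 1 listed gene are not reported here, and it was left out of the counts over lists.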

Additional observations from a re-analysis of the deposited data

How the results depend on the processing

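All 9 genes were detected at 0.5 TPM and against M4, and 8 at 2 TPM, where Hhip was lost. The median of their 9 mean levels, 16.5 TPM, was 13.2 against M4, 18.1 with TPM rescaled over annotated genes, 6.02 over complete coding models only, and between 14.6 and 15.1 from single libraries. Spike-in totals moved the median ratio of all genes from -0.01 to -0.28 on the log2 scale. Under them the ratio of Gli2 turned to -0.12, and 1 of the 9 was higher in replicate 1 and 5 in replicate 2 beyond counting error, in place of 3 and 1; genes past 2-fold numbered 217 and 873, in place of 354 and 487. With 50 counts in a library required, those past 2-fold numbered 208 (77 and 131), in place of 841. The rest of the 841 had fewer than 50 counts in each library. None of the 9 was past 2-fold under any scaling, count minimum or annotation tried. By counts not divided by length, Gli3 took 78.9% of the Gli factors, Shh 82.9% of the ligands and Gas1 45.9% of the co-receptors; against M4, Shh took 80.9%. No paired analysis was possible because the 2 libraries form 1 group. Every SD rests on n = 2, and the depth leaves Shh at 177 counts in replicate 1, the lowest of the 9 in either library.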
